A study of Rattus norvegicus with 18 samples.

Results

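The collagen genes described here are those whose single platform symbol has the form Col, a number, a and a number, and 25 genes met that rule among the 14324 genes with a single symbol on the array. They comprised 10 fibrillar collagens (Col1a1, Col1a2, Col2a1, Col3a1, Col5a1, Col5a2, Col5a3, Col11a1, Col11a2 and Col27a1), 3 basement membrane collagens of type IV (Col4a1, Col4a3 and Col4a4) and 12 others. The others were the anchoring fibril chain Col7a1, the fibril-associated chains Col9a1, Col9a2, Col12a1, Col14a1 and Col16a1, the microfibrillar chain Col6a4, the short-chain collagens Col8a1 and Col10a1, and the transmembrane collagens Col13a1, Col17a1 and Col23a1. The study profiled RNA of the rat gliosarcoma line 9L on 18 Affymetrix Rat Gene 1.0 ST arrays, 3 in each of 6 groups, to set hypoxic expression in a solid tumour beside that of the same cells in culture. Hypoxic tumour regions were the EF5-positive areas, and normoxic tumour regions the EF5-negative areas, cut by laser capture from the same 3 tumours. EF5 is a drug that binds to cell protein where oxygen is low. The tumours grew in male Fischer 344 rats, which carry the same genetic background as 9L. Cells injected under the skin at 6 weeks of age gave the first tumour, and pieces of later transplant passages, tied to the epigastric artery and vein, gave the tumours that were sampled. Hypoxic cultures of 9L cells were held at 0.2% O2 for 6 or 16 h and normoxic cultures at about 20% O2 for the same times. A tumour region also holds the host's vessels, fibroblasts and blood-derived cells, which the cultures lack, and all RNA was amplified from 2 ng before hybridisation. Nothing in the labels says that the 3 cultures of a group were grown on separate occasions, so p-values over cultures measure a spread that may be technical.

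Collagens are secreted proteins of 3 chains wound into a triple helix. Fibrillar collagens assemble into the cables that give connective tissue its strength, type IV collagens form the sheet under epithelia and around vessels, and fibril-associated collagens sit on the fibril surface. Inside the cell each chain needs hydroxylation of proline and lysine by oxygen-dependent enzymes before it can fold, and several genes of those enzymes are known targets of the hypoxia-inducible transcription factors. In solid tumours fibroblasts are known as a main source of fibrillar collagen, and vessels as a main source of type IV collagen.

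Promoter sequences were looked up for all members, and 20 of the 25 had an entry in the RefSeq promoter table of the rat assembly GRCr8, which holds 300 bases around each annotated start. The letters ACGTG, the core of the hypoxia response element in its A form, were found on either strand in 0 of 20 collagen promoters, against 19.3% of all 33469 promoters of that length. The G form, GCGTG, was found on either strand in 7 of 20, or 35%, against 29.7% of all promoters. CCAAT, the letters bound by the general factor NF-Y, was found on either strand in 35% of collagen promoters, against 37.5% of all promoters. ACGTG and GCGTG differ in their first letter, so 1 place on a strand cannot match both, and matches of any of the 3 words can overlap at their end letters. Col4a4 and Col4a3, 2 chains of the kidney and lung form of type IV collagen, lie head to head with their starts 413 bases apart, and their 300-base windows share 88 bases. The 250 bases before the start of each are shown because the pair shares a promoter region, with the shared bases in capitals. Col4a4 lies on the minus strand at chr9:91323578-91323827 and Col4a3 on the plus strand at chr9:91323740-91323989.
Col4a4: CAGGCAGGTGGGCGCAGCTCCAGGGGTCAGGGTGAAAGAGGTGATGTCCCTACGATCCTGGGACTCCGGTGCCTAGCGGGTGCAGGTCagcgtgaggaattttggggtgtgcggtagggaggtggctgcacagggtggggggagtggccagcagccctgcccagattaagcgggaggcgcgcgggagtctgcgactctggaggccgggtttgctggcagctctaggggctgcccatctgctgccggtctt
Col4a3: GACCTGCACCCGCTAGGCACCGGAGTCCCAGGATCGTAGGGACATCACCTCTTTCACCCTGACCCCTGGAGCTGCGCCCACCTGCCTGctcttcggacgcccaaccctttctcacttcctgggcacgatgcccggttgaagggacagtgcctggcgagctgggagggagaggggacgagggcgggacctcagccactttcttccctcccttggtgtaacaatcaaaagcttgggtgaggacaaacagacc
For Col1a2, the second chain of type I collagen and the member with the smallest tumour p-value, the stretch from 250 to 141 bases before the annotated start (chr4:33518307-33518416, plus strand) holds a CCAAT on the minus strand, in capitals, and no hypoxia core. For Col4a1, the main type IV chain, the stretch from 250 to 131 bases before the start (chr16:84885347-84885466, plus strand) holds GCGTG and, on the minus strand, CCAAT, both in capitals.
Col1a2: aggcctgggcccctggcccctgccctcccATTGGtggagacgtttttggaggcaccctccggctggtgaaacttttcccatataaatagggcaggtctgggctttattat
Col4a1: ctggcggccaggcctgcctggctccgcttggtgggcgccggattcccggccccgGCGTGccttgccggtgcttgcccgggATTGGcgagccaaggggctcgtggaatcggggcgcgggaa
These matches describe the letters of the windows and do not show that any factor binds there.

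Values are the deposited log2 signals, so a difference of 1 is a doubling of signal, and the signal of a probe set is compared only with itself across arrays. The 27363 probe sets were divided into 4 brightness bins of equal size by mean signal. Of the 25 members, 0 were in the dimmest bin, 2 in the second, 20 in the third and 3 (Col1a1, Col1a2 and Col5a2) in the brightest. Only Col6a4 had more than 1 single-symbol probe set, and its brightest stood for it. Array medians were 6.36 to 6.499 in tumour samples and 6.02 to 6.19 in cultures, with a narrower spread of signals in tumour samples (SD 1.76 to 1.92) than in cultures (SD 2.04 to 2.17). A single array was unlike the rest: the normoxic region of tumour 3 correlated at 0.941 with the average normoxic culture across all probe sets, and the remaining 5 tumour samples at 0.865 to 0.892. Class medians between tumour regions, and some values of Col3a1 and Col12a1, are also given without this tumour or this array. In a mixed sample, fewer collagen-making cells and less collagen RNA per cell cannot be told apart.

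Within the tumours, no collagen gene passed the test between hypoxic and normoxic regions. On average 19 of 25 measured higher in the hypoxic region, beside 64.8% of all probe sets. The 6 that measured lower included the type I and type III chains, the bulk of fibroblast-made fibrils, and Col5a2. With limma's moderated test, tumour as a block and Benjamini-Hochberg adjustment over all probe sets, 0 of 25 members passed an adjusted p of 0.05, and 0% of all probe sets did. The smallest adjusted p was 0.482 among collagens and 0.106 over the whole array, where 2496 probe sets had an unadjusted p under 0.05. Col1a2 was the 1 collagen with an unadjusted p under 0.05.

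Col1a2 had log2 signals of 7.83, 8.41 and 8.28 in hypoxic tissue of tumours 1, 2 and 3, against 8.52, 8.70 and 8.95 in normoxic tissue. Every hypoxic value lay below every normoxic one, and the differences within a tumour were -0.69, -0.29 and -0.67. The mean difference was -0.55 ± 0.19 (SE, n = 3 tumours; limma adjusted p = 0.482). In a fit of all 18 arrays with pairs as blocks, where the cultures share the estimate of spread and 5.15% of all probe sets passed, Col1a2 was the 1 collagen past the threshold (adjusted p = 0.0395). Its partner chain Col1a1, with which it makes type I collagen, had 8.90, 9.29 and 8.98 in the hypoxic regions, against 9.51, 9.16 and 9.33 in the normoxic regions. Tumour 2 differed in direction from the other 2 tumours for Col1a1, and the mean difference was -0.28 ± 0.22 (SE, n = 3; limma adjusted p = 0.696). The 2 chains of type I collagen therefore shared a direction in 2 of 3 tumours.

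Col3a1, the type III chain that copolymerises with type I, had 7.36, 7.96 and 6.98 in the hypoxic regions, against 7.69, 7.74 and 8.23 in the normoxic regions. Tumour 3 carried most of the difference, at -1.24, against -0.33 in tumour 1 and 0.22 in tumour 2. The mean difference of -0.45 ± 0.30 (SE, n = 3; limma adjusted p = 0.667) was -0.05 without tumour 3 and -0.79 without tumour 2. Col5a2, a type V chain found within type I fibrils, had 7.68, 7.66 and 7.50 in the hypoxic regions, against 7.89, 7.78 and 7.84 in the normoxic regions. All 3 of its tumours had the lower value in the hypoxic region, by -0.21, -0.12 and -0.33. The other 6 fibrillar genes had mean differences between 0.03 and 0.19, with tumour 2 at or below 0 for each of them.

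Type IV chains had small positive differences. Col4a1 had 6.88, 6.89 and 7.002 in the hypoxic regions, against 6.93, 6.75 and 6.69 in the normoxic regions, a mean difference of 0.14 ± 0.19 (SE, n = 3; limma adjusted p = 0.803). The head-to-head pair differed in the same direction in every tumour, by 0.05, 0.02 and 0.70 for Col4a3 and by 0.17, 0.05 and 0.39 for Col4a4. For both, tumour 3, whose normoxic array stood apart, gave the widest gap. Among the other collagens, Col16a1, Col9a1 and Col17a1 each differed by 0.28 on average, and the smallest of their limma adjusted p-values was 0.664. Col16a1, a fibril-associated chain, and Col17a1, a transmembrane chain of the hemidesmosome, were higher in all 3 tumours, whereas Col9a1 was -0.04 in tumour 2.

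Direction alone was shared by all 3 tumours for 7 collagens. The 5 higher ones were Col4a3, Col4a4, Col16a1, Col17a1 and Col23a1, a share of 5 in 25 beside 22.9% of all probe sets. The 2 lower ones were Col1a2 and Col5a2, beside 11% of all probe sets. Class medians were 0.05 for fibrillar, 0.20 for type IV and 0.15 for other collagens, and the median of all probe sets was 0.10. Without tumour 3 the medians were -0.06, 0.05 and 0.06 in the same order, and that of all probe sets was 0.04. By tumour, the fibrillar median was 0.01, -0.10 and 0.27 and the type IV median 0.05, 0.05 and 0.39, while all probe sets had 0.08, 0.00 and 0.21. The order of the tumours was thus the same for fibrillar collagens as for the array as a whole. Since the brightest bin of all probe sets had a median of -0.13, the gap of Col1a2 to its own brightness bin was -0.42. Col1a1 and Col5a2 lie in the same bin, and their mean differences of -0.28 and -0.22 were nearer to that median. Confidence intervals (95%, not adjusted for the number of genes) for the 25 members ran from -1.18 to 0.78. With 3 tumours, any true difference inside a gene's own interval remained compatible with its values.

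Marker lists of other cells differed in direction between hypoxic and normoxic regions. The mean of 10 fibroblast markers was 6.21 to 6.43 in the hypoxic regions, against 6.36 to 6.97 in the normoxic regions, and differed by -0.15, -0.11 and -0.58 in tumours 1, 2 and 3. The mean of 9 macrophage markers differed by -0.66, -0.15 and -1.09, and that of 7 endothelial markers by 0.05, -0.02 and -0.10. Fibroblast and macrophage markers had their widest gap in tumour 3, whose normoxic array stood apart. Of the fibrillar collagens lower on average, Col3a1 and Col5a2 did too, whereas Col1a1 had its widest gap in tumour 1 (-0.61). For Col1a2 the gaps in tumours 1 and 3 were nearly equal (-0.69 and -0.67). The mean of 7 pericyte and smooth muscle markers differed by 0.24, 0.14 and 0.17, and that of 5 glial and 9L identity markers by 0.18, 0.20 and 0.21. Skeletal muscle markers had 0.10, -0.03 and 0.18 and adipocyte markers -0.02, -0.13 and 0.53. Set against their own brightness bins, median gaps were -0.41 for fibroblast, -0.44 for macrophage and -0.25 for endothelial markers. The remaining lists had gaps of 0.06 (pericyte and smooth muscle), 0.03 (glial and 9L), 0.01 (skeletal muscle) and -0.02 (adipocyte). No marker passed the test, and the part of these cells in the collagen differences was not tested.

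**Figure D1:**
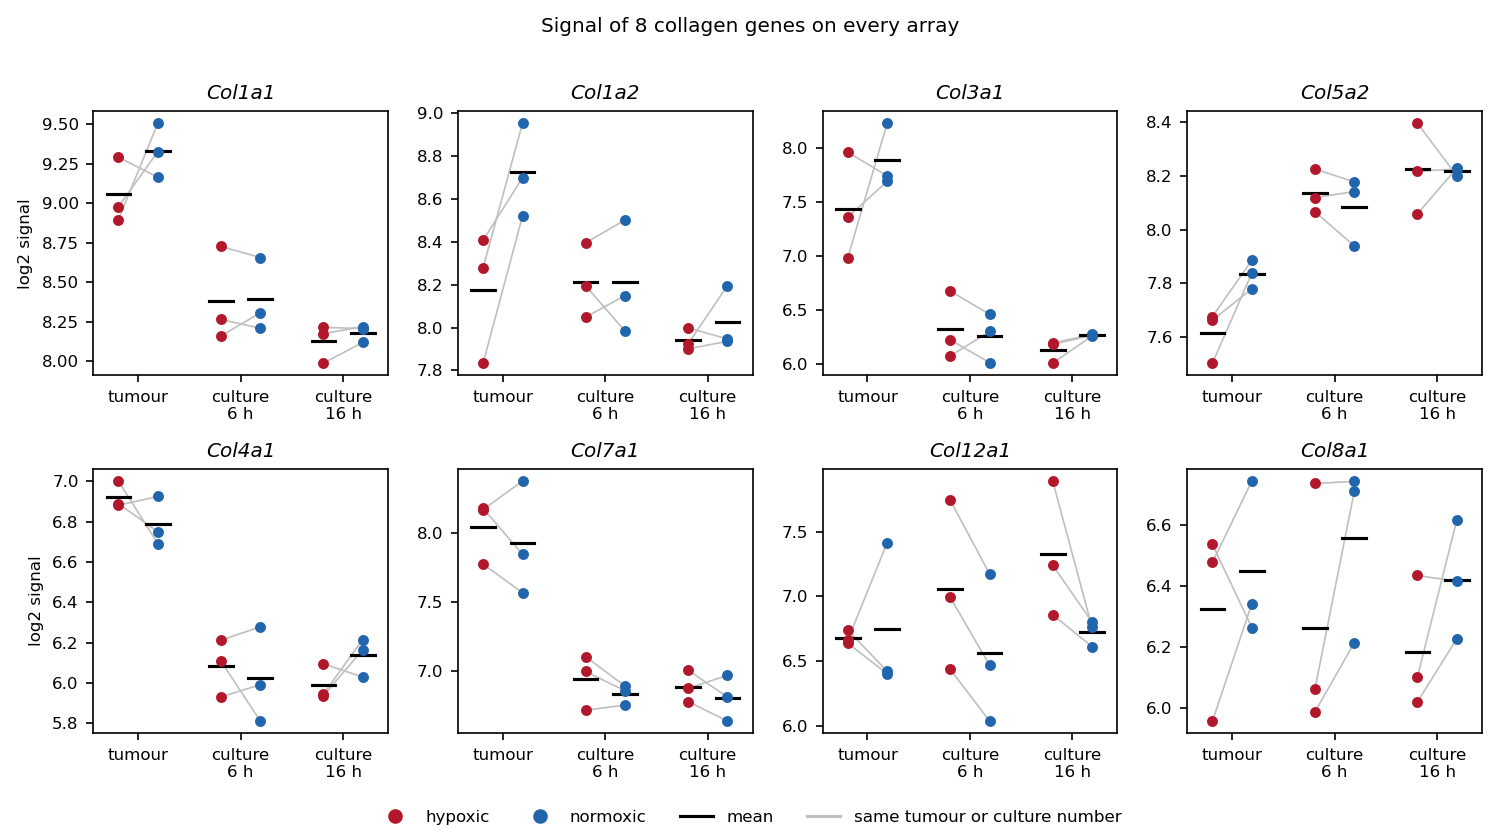
Log2 signal (vertical axis) of 8 collagen genes on each of the 18 arrays, with hypoxic samples in red to the left of normoxic samples in blue, black bars for group means of 3 arrays, and grey lines joining samples of the same tumour or culture number. The 3 hypoxic tumour values of Col1a2 lie below its 3 normoxic ones, and Col12a1 is higher in the hypoxic member of all 6 culture pairs. Col5a2 is lower in all tumour samples than in all cultures, as are 11.6% of all probe sets.

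In culture, the same cells showed no collagen gene past the threshold after 6 or 16 h at low oxygen. At 6 h, 0 of 25 collagens passed limma's test, beside 0.19% of all probe sets, and 0 of them had an unadjusted p under 0.05 (smallest adjusted p = 0.984). At 16 h it was again 0 of 25, beside 0.705% of all probe sets, with 1 unadjusted p under 0.05, that of Col6a4 (smallest adjusted p = 0.608). Leaving out Col12a1, the 95% intervals of the collagens ran from -0.73 to 0.52 at 6 h and from -0.67 to 0.34 at 16 h. Class medians at 6 h were 0.06 for fibrillar, 0.09 for type IV and 0.06 for other collagens. At 16 h they were -0.08, -0.02 and -0.06 in the same order, and the medians of all probe sets were 0.01 at 6 h and -0.03 at 16 h.

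The type I chains and Col4a1 had measured differences near 0. Col1a1 had 8.16, 8.26 and 8.73 in hypoxic cultures at 6 h, against 8.31, 8.21 and 8.66 in normoxic ones, and 8.21, 7.99 and 8.17 in hypoxic cultures at 16 h, against 8.21, 8.12 and 8.22. Its differences were -0.01 ± 0.15 at 6 h and -0.06 ± 0.15 at 16 h (SE, n = 3 cultures a group). Col1a2 differed by 0.00 ± 0.14 at 6 h and by -0.09 ± 0.14 at 16 h. Col4a1 differed by 0.06 ± 0.13 at 6 h and by -0.14 ± 0.13 at 16 h. For each of these 3 genes the hypoxic and normoxic values overlapped at both times.

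Col12a1, a fibril-associated collagen that bridges fibrils to the surrounding matrix, had the largest measured difference at either time. At 6 h its signals were 6.43, 6.99 and 7.74 in hypoxic cultures, against 6.04, 6.47 and 7.17 in normoxic cultures of the same numbers. At 16 h they were 7.24, 7.89 and 6.86 in hypoxic cultures, against 6.80, 6.76 and 6.61 in normoxic cultures. Hypoxic values were higher in all 6 same-numbered pairs, by 0.40, 0.53 and 0.57 at 6 h and 0.44, 1.13 and 0.25 at 16 h, while the groups overlapped at 6 h and did not at 16 h. Across all probe sets, 3.34% were higher in all 6 pairs. The differences were 0.50 ± 0.33 at 6 h (limma adjusted p = 0.984) and 0.61 ± 0.33 at 16 h (limma adjusted p = 0.711; SE, n = 3 a group). Blocking on culture number brought the SE to 0.15 at both times, and the limma adjusted p-values were 0.517 at 6 h and 0.12 at 16 h, still past no threshold. Among normoxic cultures alone, Col12a1 ran from 6.04 to 7.17 at 6 h.

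Col6a4, a microfibrillar chain, was lower in all 6 pairs, by -0.02 to -0.28, beside 3.41% of all probe sets, with a difference of -0.20 ± 0.09 at 16 h. Its other single-symbol probe sets differed by 0.11 and 0.01 at 16 h, so the probe sets of this gene did not share a sign. Col8a1, a short-chain collagen of vessel walls, differed by -0.30 ± 0.20 at 6 h and -0.24 ± 0.20 at 16 h, with 5 of its 6 pairs lower, by up to -0.65. The other members with the smallest p-values at 6 h, none past the threshold, were Col4a3 (0.18), Col17a1 (0.14), Col27a1 (0.17) and Col13a1 (0.19). At 16 h Col17a1 was at -0.17 and Col27a1, a fibrillar chain of cartilage, at -0.16.

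Between the times, no collagen passed the test either. In normoxic cultures, 0 of 25 passed the test of 16 h against 6 h, beside 4.86% of all probe sets, and in hypoxic cultures 0 of 25 passed, beside 2.93%. In the test of the change in hypoxia response from 6 to 16 h, 0 of 25 passed and so did 0% of all probe sets. The fibrillar median of that difference was -0.10 and the median of all probe sets -0.03, with the smallest p-values at Col17a1 (-0.31) and Col27a1 (-0.34). From 6 to 16 h, Col1a1 and Col1a2 measured -0.26 and -0.27 in hypoxic cultures, and -0.21 and -0.19 in normoxic cultures. Col17a1 had the smallest p over time in normoxic cultures, at 0.27 ± 0.11 (SE, n = 3 a group; limma adjusted p = 0.163).

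**Figure D2:**
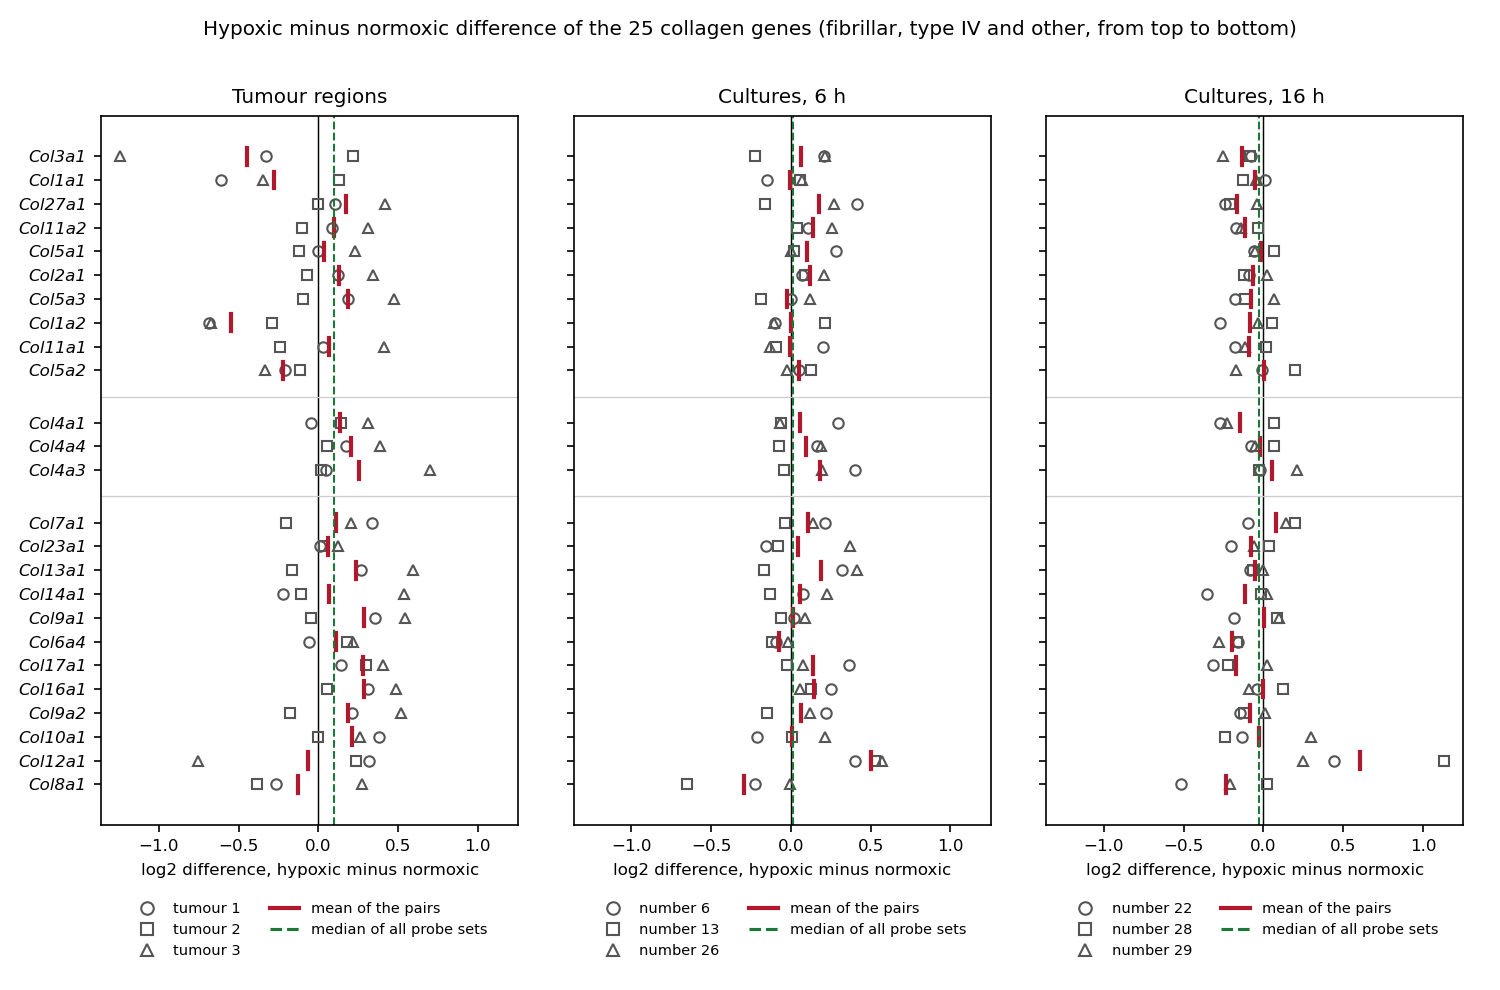
Hypoxic minus normoxic log2 difference (horizontal axis) of the 25 collagen genes, by tumour in the left panel and by same-numbered culture pair at 6 h and 16 h in the other panels. Open symbols are single pairs, red bars their mean and the green dashed line the median of all probe sets. Tumour differences scatter from -1.24 to 0.70, Col1a2 and Col5a2 lie left of 0 in every tumour, and in culture only Col12a1 has every pair to the right.

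The tumour response was set against the mean culture response in a single fit with the 9 pairs as blocks. Here 0 of 25 collagens passed, beside 1.17% of all probe sets. Col1a2 had the smallest p, with a response lower in tumours by -0.51 ± 0.16 (SE; limma adjusted p = 0.164). Col12a1 followed, at -0.62 ± 0.27 (SE; limma adjusted p = 0.285), and was -0.28 without tumour 3. In that tumour the normoxic value of Col12a1 was 7.42, against 6.42 and 6.40 in normoxic tissue of tumours 1 and 2. Next by p were Col17a1 (0.30), Col6a4 (0.25), Col5a2 (-0.25) and Col9a1 (0.28). The fibrillar median of this difference was 0.04, the type IV median 0.17 and the median of the others 0.18, beside 0.10 over all probe sets.

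Against cultures, the tumour samples had higher signal for most collagens in both oxygen states. In normoxic tumour regions the widest differences were those of Col3a1, Col7a1, Col1a1 and Col23a1, and in hypoxic ones those of Col3a1, Col7a1, Col23a1 and Col27a1, each above a doubling of signal. Col5a2 was lower in both. Tumour and culture arrays differed by brightness as well: normoxic tumour regions minus normoxic cultures had a median over all probe sets of 0.24, which was 0.29 in the third bin, where most collagens lie, and -0.62 in the brightest bin. For hypoxic tumour regions minus hypoxic cultures the medians were 0.37 over all probe sets, 0.37 in the third bin and -0.77 in the brightest. This shift, tumour origin and any difference in handling between the sample types cannot be told apart for a gene that follows it. The gap of a gene to its bin is its difference minus the median of that bin, and is given for the genes described.

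Comparing hypoxic tumour regions with hypoxic cultures, 22 of 25 collagens passed, beside 76% of all probe sets. Of these, 21 were higher, beside 53.5% of all probe sets and 51.4% of those in the third brightness bin, and Col5a2 alone was lower, beside 22.5%. For normoxic tumour regions against normoxic cultures, 23 passed, beside 64.3% of all probe sets. Of these, 22 were higher, beside 43.6% of all probe sets and 46.6% of those in the third bin, and Col5a2 alone was lower, beside 20.7%. Col8a1 and Col12a1 passed in neither, and Col1a2 did not pass in the hypoxic comparison (0.10 ± 0.15, limma adjusted p = 0.554). After centring each array on its median, 13 collagens were higher in the normoxic comparison, beside 16% of all probe sets, and 1 was lower, beside 31%. By array, 18 of 25 collagens had all 6 tumour values above all 12 culture values, beside 24.8% of all probe sets. These comprised 8 of 10 fibrillar, 2 of 3 type IV and 8 of 12 other genes.

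Col3a1 had signals of 6.98 to 7.96 in hypoxic and 7.69 to 8.23 in normoxic tumour regions, against 6.01 to 6.67 over all cultures. It was higher in tumours by 1.21 ± 0.19 in the hypoxic comparison (limma adjusted p = 4.32e-05) and by 1.62 ± 0.19 in the normoxic comparison (SE; limma adjusted p = 5.54e-06). Without the normoxic array of tumour 3 the normoxic difference was 1.45. Its gaps to the bin were 0.83 and 1.33 in the hypoxic and the normoxic comparison. Col1a1 had 8.90 to 9.29 in hypoxic and 9.16 to 9.51 in normoxic tumour regions, against 7.99 to 8.73 over all cultures. It was higher by 0.80 ± 0.14 in the hypoxic and 1.05 ± 0.14 in the normoxic comparison, with gaps of 1.57 and 1.67 to the brightest bin. Its partner Col1a2 was higher by 0.61 ± 0.15 in the normoxic comparison (limma adjusted p = 0.00223), and that call was lost when arrays were centred on their medians. Its gaps to the brightest bin were 0.87 in the hypoxic and 1.23 in the normoxic comparison.

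Col5a2 had 7.50 to 7.68 in hypoxic and 7.78 to 7.89 in normoxic tumour regions, against 7.94 to 8.40 over all cultures. No tumour value reached the lowest culture value, which was also so for 11.6% of all probe sets. The difference was -0.57 ± 0.09 in the hypoxic comparison (limma adjusted p = 6.66e-05) and -0.32 ± 0.09 in the normoxic comparison (limma adjusted p = 0.00793). Both were above the median of the brightest bin, by 0.21 and 0.30, and both calls were lost after quantile normalization, where the differences were -0.17 (hypoxic) and 0.11 (normoxic). Its partner Col5a1, which joins it in the common form of type V collagen, was higher by 0.63 ± 0.10 in the hypoxic and 0.64 ± 0.10 in the normoxic comparison, with gaps of 0.25 and 0.34. The 2 chains thus had opposite signs in the deposited values and lie in different brightness bins, and both lay above their bins.

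Outside the fibrillar class, Col7a1, the chain of the fibrils that anchor epithelial basement membranes, was higher by 1.13 ± 0.16 in the hypoxic and 1.11 ± 0.16 in the normoxic comparison, with gaps of 0.75 and 0.81. Col23a1, a transmembrane collagen, had 7.36 to 7.49 in every tumour sample, against 6.05 to 6.66 in cultures, and was higher by 1.08 ± 0.12 and 1.01 ± 0.12 in the hypoxic and the normoxic comparison, with gaps of 0.71 and 0.72. Col4a1 was higher by 0.89 ± 0.11 in the hypoxic and 0.71 ± 0.11 in the normoxic comparison, with gaps of 0.51 and 0.41. Col27a1 was higher by 1.00 and 0.84 and the transmembrane chain Col13a1 by 0.99 and 0.83 in the hypoxic and the normoxic comparison, with gaps of 0.63 and 0.54 for Col27a1 and 0.62 and 0.53 for Col13a1. Col14a1, a fibril-associated chain, was higher by 0.74 and 0.64 in the same order, with gaps of 0.10 and 0.17, and lost its normoxic call after quantile normalization. Type IV genes had class medians of 0.71 (hypoxic) and 0.54 (normoxic), which were 0.13 and 0.08 above their own brightness bins. Fibrillar medians were 0.75 and 0.63, or 0.44 and 0.37 above their bins, and other collagens had 0.75 and 0.52, or 0.36 and 0.21 above theirs. The differences between classes were not tested.

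Most markers of host cells, and those of the 9L cells themselves, were also higher in tumour samples. In normoxic tumour regions against normoxic cultures, where 43.6% of all probe sets were higher, 9 of 10 fibroblast markers rose, with a median of 0.93 and Dpt at 4.30, as did 8 of 9 macrophage markers (median 2.31) and 7 of 7 endothelial markers (median 0.67). Skeletal muscle and adipocyte markers rose too, 6 of 7 with a median of 0.60 and 5 of 5 with a median of 0.44. Of 7 pericyte and smooth muscle markers 5 rose and 1 fell (median 0.64), and 4 of 5 glial and 9L identity markers rose, with a median of 0.61. The collagen median in the same comparison was 0.61. Median gaps to the brightness bin were 1.84 for macrophage, 0.69 for fibroblast, 0.41 for endothelial and 0.36 for glial and 9L markers. They were 0.20 for pericyte and smooth muscle, 0.13 for skeletal muscle and -0.03 for adipocyte markers, of which 2 of 5 lay above their bin. In the hypoxic comparison the order differed, with gaps of 1.61 for macrophage, 0.82 for glial and 9L, 0.26 for fibroblast and 0.17 for endothelial markers. Skeletal muscle markers had 0.18 there, adipocyte markers 0.03, and pericyte and smooth muscle markers 0.02. The part of host cells in the collagen signal was not tested, and the arrays carry no detection call by which a marker could be called absent from a sample.

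**Figure D3:**
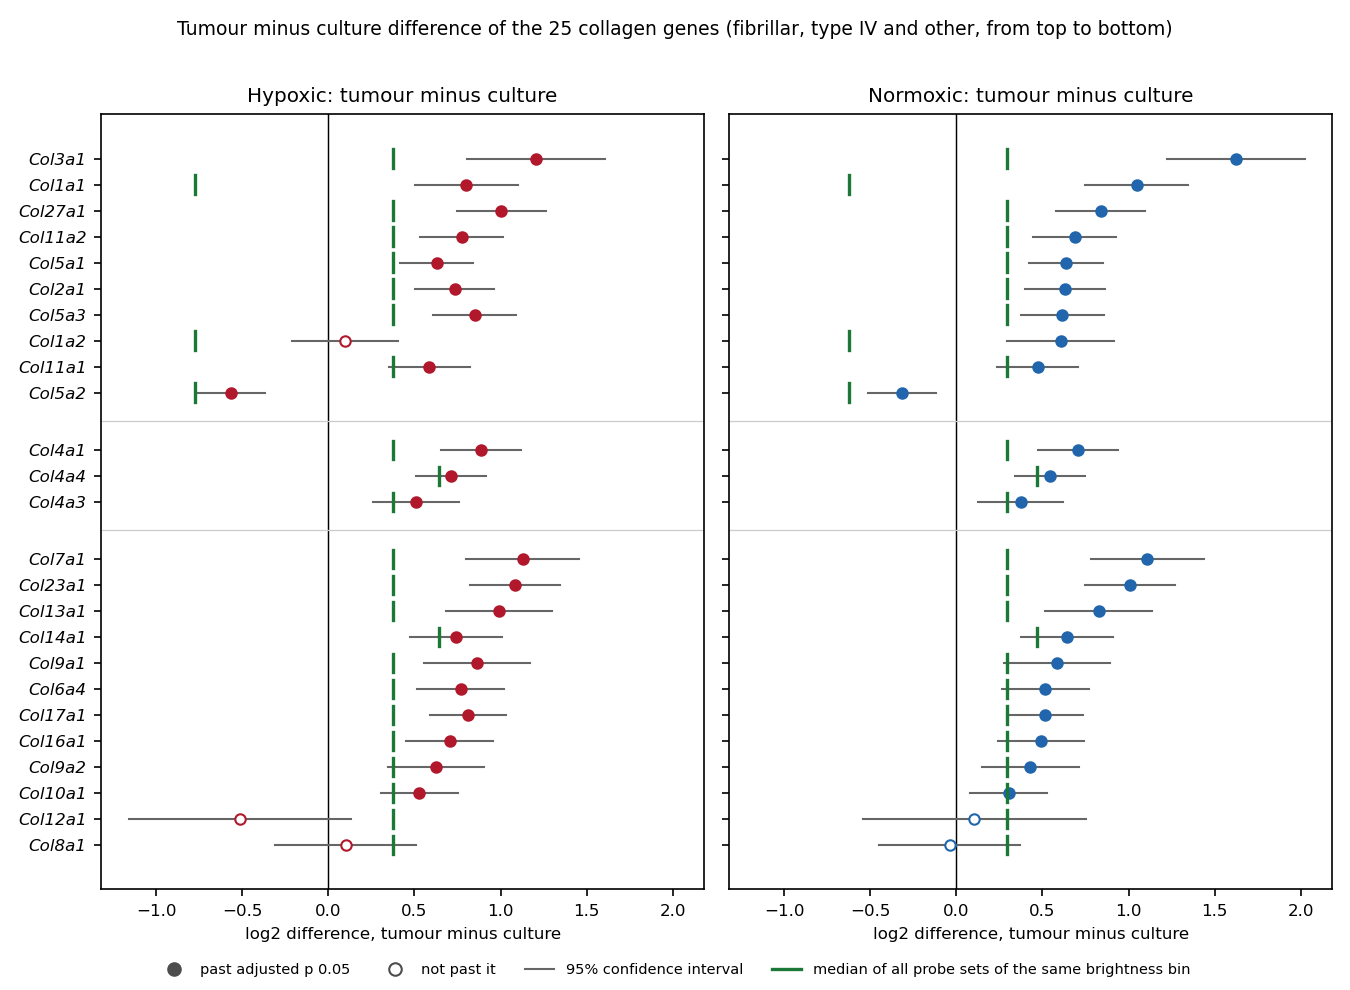
Tumour minus culture log2 difference (horizontal axis) of the 25 collagen genes, hypoxic samples on the left and normoxic on the right, with 95% confidence intervals. Filled points passed an adjusted p of 0.05 and green ticks mark the median of all probe sets of the same brightness bin. Col3a1, Col7a1 and Col23a1 lie furthest to the right of their ticks among genes of the third bin, and Col12a1 and Col8a1 have open points in both panels.

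Several genes that modify, fold and crosslink collagen rose at low oxygen in culture. The partner lists also held matrix partners of fibrils, basement membrane partners, and receptors and uptake genes. Of 64 partner genes listed, 53 were measured, among them 16 modifying enzymes and chaperones and 11 processing and crosslinking genes. At 6 h, 3 rose and 0 fell, beside 0.183% of all probe sets rising and 0.00731% falling. At 16 h 6 rose and 0 fell, beside 0.603% rising and 0.102% falling. P4ha1 and P4ha2, the catalytic chains of the prolyl hydroxylase that stabilises the triple helix, rose by 0.83 and 1.02 at 6 h and by 0.85 and 1.38 at 16 h. Loxl2, a lysyl oxidase family enzyme that crosslinks collagen, rose by 0.67 at 6 h (limma adjusted p = 0.0498) and by 0.92 at 16 h. At 16 h P4hb, the non-catalytic chain of the hydroxylase, rose by 0.55, and the lysyl hydroxylases Plod1 and Plod2 by 0.99 and 1.15. The 6 h count was 0 when any of 4 single arrays was left out (hypoxic 13 and 26, normoxic 6 and 26), and with the culture number as a block only P4ha1 passed at 6 h. In a fit of all 18 arrays in 6 groups without a block, 0 rose at 6 h, where 0.0219% of all probe sets passed, and 3 at 16 h, where 0.121% did.

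Plod2 showed the largest measured partner difference in tumours. It had 10.37, 10.25 and 9.34 in hypoxic regions, against 8.63, 9.42 and 7.97 in normoxic regions, higher in each tumour. The difference of 1.32 ± 0.23 (SE, n = 3; limma adjusted p = 0.216), like those of P4ha1 (1.02), P4ha2 (1.02) and Plod1 (0.97), did not pass in the tumour arrays alone, where 0 of 53 partner genes passed. In the fit of all 18 arrays with pairs as blocks, with 5.15% of probe sets called, 6 partner genes passed as higher (P4ha1, P4ha2, P4hb, Plod1, Plod2 and Lama5) and 2 as lower (Loxl3 and Postn). Matrix partners of fibrils had a median tumour difference of -0.26, with 7 of 8 measured lower, beside 35.2% of all probe sets. Those lower included Postn, a fibril-binding matrix protein, at -0.65. Dcn and Lum belong to this list and to the fibroblast markers, so the lists are not independent. Basement membrane partners had a median of 0.30, with 8 of 9 measured higher, and processing and crosslinking genes 0.26, with 9 of 11, beside 64.8% of all probe sets measured higher. Set against their own brightness bins, 5 of 8 matrix partners lay below (median gap -0.33). Of the basement membrane partners 6 of 9 lay above (0.18), and of the processing and crosslinking genes 8 of 11 (0.22).

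Of the 6 partner genes called in culture, 5 had a promoter in the table, and 5 of 5 held ACGTG or GCGTG on either strand, beside 41.6% of all promoters and 35% of collagen promoters. These shares were not matched for base content, and the median share of G and C letters was 62.3% in collagen promoters and 51.7% in all promoters. The matches do not show that any factor binds there. The stretches of P4ha2 (chr10:38743644-38743893, plus strand) and Plod2 (chr8:101964068-101964317, plus strand) are printed because these genes had the largest 16 h differences, with the cores in capitals.
P4ha2: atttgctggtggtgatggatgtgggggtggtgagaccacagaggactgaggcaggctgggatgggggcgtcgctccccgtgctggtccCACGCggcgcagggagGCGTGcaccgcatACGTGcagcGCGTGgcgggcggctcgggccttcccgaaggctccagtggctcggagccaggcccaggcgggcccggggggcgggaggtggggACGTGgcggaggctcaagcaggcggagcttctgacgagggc
Plod2: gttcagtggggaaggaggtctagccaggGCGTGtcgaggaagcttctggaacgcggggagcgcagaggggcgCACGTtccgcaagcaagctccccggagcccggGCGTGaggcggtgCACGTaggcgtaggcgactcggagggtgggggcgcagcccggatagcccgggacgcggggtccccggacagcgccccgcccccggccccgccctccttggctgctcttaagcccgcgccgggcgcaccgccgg
P4ha2 held ACGTG at 2 places and GCGTG at 3, and Plod2 each word at 2.

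Against cultures, more of the enzymes were lower than higher in tumours. In normoxic tumour regions against normoxic cultures, 8 of 16 measured modifying enzymes and chaperones were lower and 2 higher, beside 20.7% and 43.6% of all probe sets, with a median of -0.48. Of these 16 genes, 13 lie in the brightest bin, and their median gap to the bin was 0.04. Ppib, a prolyl isomerase of the folding machinery, was lower by -1.70, P4ha3 by -1.58 and Plod2 by -1.55, and the crosslinking enzymes Lox and Loxl2 by -1.27 and -1.21. These 5 genes are in the brightest bin and lay below its median, by -0.59 (Loxl2) to -1.08 (Ppib). Over all partner lists 19 of 53 genes, or 35.8%, were higher and 12, or 22.6%, lower, beside the same 43.6% and 20.7%. Postn was higher by 1.54. The difference between the enzymes and the chains was not tested.

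**Figure D4:**
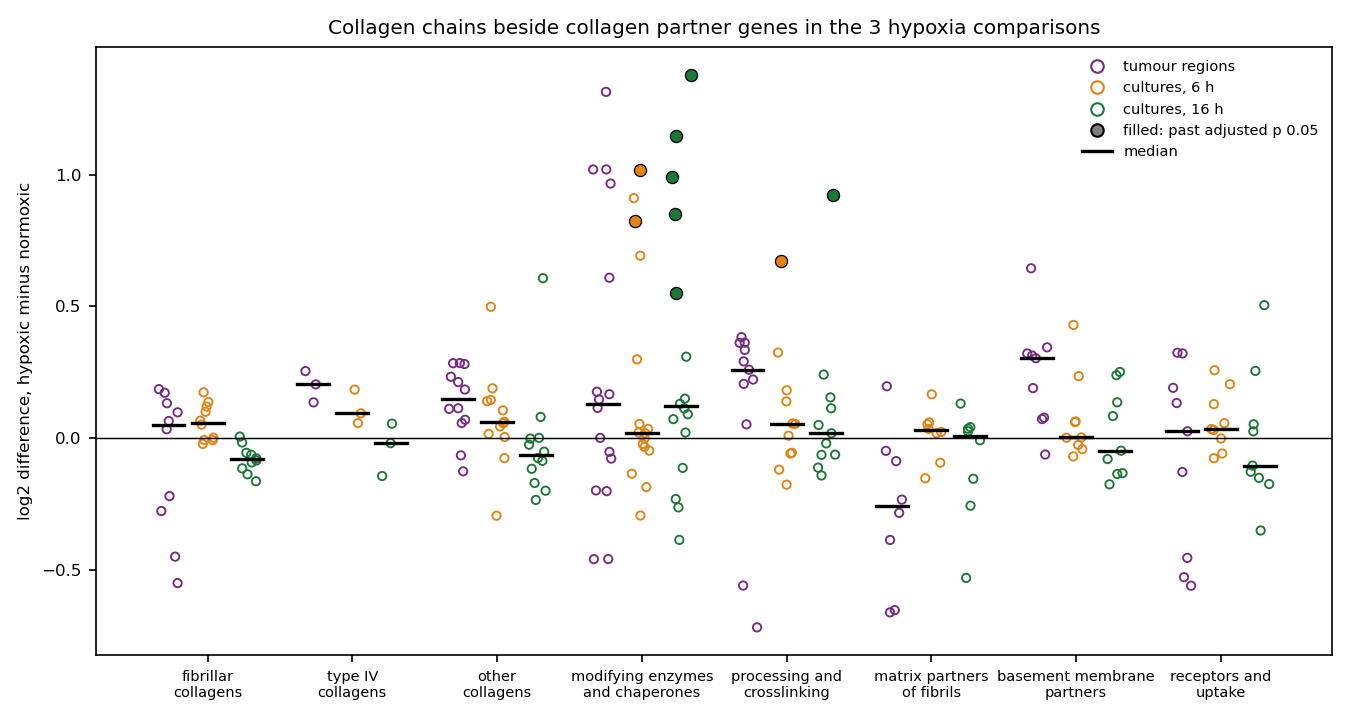
Hypoxic minus normoxic log2 difference (vertical axis) of single genes, grouped by collagen class and partner list, for tumour regions (purple), cultures at 6 h (orange) and cultures at 16 h (green). Filled points passed an adjusted p of 0.05 and black bars are medians. All filled points are modifying enzymes or the crosslinking enzyme Loxl2, between 0.55 and 1.38, and every collagen point is open.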

How the data were processed

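The table held 27363 probe sets on 18 arrays as deposited log2 intensities. The submitters' processing notes name RMA and version 6.5b of Partek. RMA pulls signals to a common distribution, which can hide a shift shared by all genes. Whether tumours and cultures shared a normalization run is not stated in those notes or in the labels. Platform annotation gave 15097 probe sets 1 symbol, 323 several and left 11943 unlisted. Differences were tested with limma 3.58.1 in R 4.3.3 (constant prior, two-sided, no filter on dim probe sets), adjusted by Benjamini-Hochberg across the 27363 probe sets with a threshold of 0.05, and checked on simulated data. Tumour was a block in the tumour comparison, culture comparisons used the 12 culture arrays, and tumours were set against cultures over all 18. Deviations from group means correlated within a culture number at r = 0.125 to 0.193 at 6 h and 0.130 to 0.307 at 16 h. Within a tumour they correlated at r = 0.036 to 0.273. Labels do not say that a culture number marks a shared culture. Correlations between different numbers were not computed, so pairing by number was assumed. Intervals cover the spread between arrays, whose number limits the precision.

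Members, classes, marker and partner lists were chosen with earlier results of these data known. The genes named were Col1a1, Col4a1, members past the threshold (or the 6 with the smallest p) and chain partners; Col5a2, Col4a3, Col4a4, Col23a1 and, outside culture, Col12a1 and Col8a1 were described beyond that rule after their values were seen. Alternatives were quantile normalization, median centring, leaving out the dimmest 25% of probe sets, a trended and robust prior, other blocks or arrays in the fit, other class borders or probe sets, and leaving out each sample. The brightness comparison, for collagens, marker lists and partner lists, was chosen after seeing the data. Protein features were not analysed here.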

Additional observations from a re-analysis of the deposited data

How the results depend on the processing

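All collagen counts in the hypoxia comparisons stayed at 0 under every alternative except the fit of all 18 arrays with replicate blocks, which called 1 collagen lower in tumours (Col1a2) and, of the partner genes, 6 higher and 2 lower. The replicate block changed no collagen call in culture, and moved the partner counts to 1 higher at 6 h and 1 lower (Fbn1) at 16 h. Partner genes rising at 6 h numbered 1 after median centring, 5 without the dimmest probe sets and 0 in the fit of all 18 arrays without a block, and 0 to 4 when single arrays were left out. At 16 h, 1 fell after centring and 1 without the dimmest, and 3 rose in the fit of all 18 arrays without a block. The fibrillar median at 6 h was 0.019 after centring and -0.018 to 0.16 over arrays left out, and that at 16 h -0.13 to -0.030.

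The normalization mattered most between tumour and culture. After centring, 13 of 25 collagens and 6 of 53 partner genes were higher in normoxic tumour regions, beside 16% of all probe sets. In hypoxic ones 2 of 25 collagens were lower, beside 31.7%. After quantile normalization 0 collagens were lower in either, beside 16.3% (normoxic) and 19.4% (hypoxic) of all probe sets. In the normoxic comparison the class medians after quantile normalization, centring and relative to the brightness bin were 0.92, 0.32 and 0.37 for fibrillar and 0.26, 0.23 and 0.078 for type IV collagens, and for the others 0.20 after centring and 0.21 by bin. In the hypoxic comparison they were 0.92, 0.40 and 0.44 for fibrillar and 0.48, 0.36 and 0.13 for type IV collagens, and for the others 0.40 and 0.36. Counting Col7a1 with type IV gave 0.80, and leaving out arrays gave fibrillar medians of 0.71 to 0.82. The cause of these moves was not tested.

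Among the genes followed across the alternatives in each comparison, some signs turned, all but that of Col5a2 in genes past no threshold. At 6 h these were Col1a1 (0.0074 after quantile normalization, -0.18 to 0.13 over arrays left out), Col1a2 (-0.038 after centring, -0.11 to 0.15) and Col4a1 (-0.051 to 0.18), and at 16 h Col1a1 (-0.10 to 0.013). In the change of response they were Col1a1 (0.025 after centring, -0.18 to 0.12), Col1a2 (-0.23 to 0.027) and Col11a1 (-0.18 to 0.0074). Between times in normoxic cultures they were Col11a1 (-0.020 after centring, -0.023 to 0.16) and Col5a1 (-0.049 after centring, -0.042 to 0.12), and in hypoxic cultures Col12a1 (-0.038 to 0.62). In normoxic tumour regions against cultures Col5a2 was 0.11 after quantile normalization, and in hypoxic ones Col1a2 was -0.26 after centring and -0.020 to 0.27 with single arrays left out, below 0 only without hypoxic tumour 2. Col5a1 in the difference of responses was 0.042 after quantile normalization and -0.11 to 0.070 with pairs left out. Outside the followed genes, Col10a1, called higher in the normoxic comparison (0.30), was -0.0086 after centring. Col12a1 in the normoxic comparison (0.10, not called) was -0.21 after centring and -0.086 after quantile normalization. Col8a1 in the hypoxic comparison (0.10, not called) was -0.26 after each. In the normoxic comparison 9 of the 22 higher calls were lost after centring and, after quantile normalization, 4 together with the lower call of Col5a2. In the hypoxic comparison 2 higher calls were lost after centring, where Col12a1 passed as lower, and the call of Col5a2 after quantile normalization, where Col1a2 passed as higher (0.66). Of the values of genes named by rule, 1066 kept their direction and their side of the threshold.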
